A study of Drosophila melanogaster with 2 samples.

Results

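The genes described here encode proteins of the mitochondrial ribosome of Drosophila melanogaster. They were taken as the protein-coding genes of the Ensembl annotation whose symbols start with mRpL (large subunit) or mRpS (small subunit). There were 73 of them among 13945 protein-coding genes on the X and the autosomes, 47 for the large subunit and 26 for the small one. The samples form 1 group, whole embryos of 0 to 24 h from the transgenic strain peb-GFP, which express a peb-eGFP fusion, and no second genotype, treatment or stage was sampled. Chromatin was sheared to 200 to 800 bp and precipitated with an antibody against GFP, in 2 biological replicates. The measurements are lists of peaks on the dm6 assembly, one list for each replicate and one made from both together, called the joint list here. A gene counts as bound when the summit of a peak lay within 1000 bp of one of its transcription start sites (TSSs). Since whole embryos were used, binding in few cells and weak binding in many cells cannot be told apart, and the level of a peak says nothing of the tissue it came from.

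Mitochondria keep a small genome whose messages are translated inside the organelle, and the ribosome that does this is built from RNA encoded there and proteins encoded in the nucleus. The mRp genes are those nuclear genes, and their products are made in the cytoplasm, imported and assembled in the mitochondrial matrix. Some of the proteins have counterparts in the bacterial ribosome and share its numbering, and others, with higher numbers, are found in mitochondria alone. The factor mapped, pebbled (also hindsight), is a zinc finger protein best known from the amnioserosa, the midgut, the tracheae and the nervous system of the embryo.

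The joint list held 2845 peaks, and replicates 1 and 2 alone gave 1418 and 2054. Each peak carries the signal value that the authors' pipeline gave it, which has no unit and ranks peaks within a list; values of different lists are not on one scale. The lists give no read numbers, so the depth behind them is unknown here. Neither a second antibody nor an untagged strain was analysed here. No statistical test is given, since there is 1 group, and each 95% interval of a share is the exact Clopper-Pearson one, which covers the counting of genes only.

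Peaks lay at 15 of the 73 mRp genes, and the 4 strongest were among the 25 strongest peaks of the genome. These 4 were mRpL41, mRpS10, mRpS23 and mRpL23. Behind them the values dropped by a factor of 2.41 to mRpL20, followed by mRpL24, mRpS2 and mRpL32, and a weaker set of 7 came last, mRpS6, mRpL34, mRpL37, mRpS31, mRpL53, mRpS18B and mRpL11. All 15 genes start within 1000 bp of a gene that runs the other way, an arrangement called head-to-head here. Each summit was within 1000 bp of that neighbour's start as well. The same arrangement held for 79.5% of all mRp genes and 60.9% of all bound genes.

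The strongest was mRpL41, whose product is a large subunit protein with no bacterial counterpart. Its peak (chromosome 2R, 15217604 to 15217894) had a joint signal of 781, with 370 in replicate 1 and 420 in replicate 2, and ranked 7 of 2845. The summit was 132 bp upstream of its TSS and 630 bp upstream of that of CG8079. The next, mRpS10, encodes the mitochondrial form of a protein of the small subunit that in bacteria lies in its head. It had a joint signal of 752 (chromosome 3R, 15229390 to 15229685), with 341 and 406 in replicates 1 and 2, at rank 8. The summit lay 121 bp upstream of mRpS10 and 136 bp upstream of Art3, which encodes a protein arginine methyltransferase. Both genes thus stood close to the top of the list in each replicate taken alone as well as jointly.

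The small subunit gene mRpS23 had a joint signal of 702 (chromosome 2L, 13835337 to 13835606), with 331 and 372 in replicates 1 and 2, at rank 11. Its summit was 396 bp upstream, the greatest distance among the 15, and only 96 bp from the start of CenG1A, which encodes a GTPase-activating protein for Arf. At mRpL23 the joint signal was 524 (chromosome 3L, 2373496 to 2373744), with 241 and 283 in replicates 1 and 2, at rank 22. In bacteria the L23 protein lies at the exit of the tunnel through which the new protein chain leaves the ribosome. This summit was the only one of the 15 downstream of the gene's nearest TSS, 72 bp inside the 5′ UTR of mRpL23. The neighbour, CG9004, starts 24 bp from the outermost mRpL23 TSS, the closest pair of all 15, and its start was 122 bp from the summit.

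The next 4 genes formed a middle group with joint signals of 154 to 217. The gene mRpL20, whose bacterial counterpart acts early in the assembly of the large subunit, had a joint signal of 217 (chromosome 3L, 13018088 to 13018225), with 97.4 in replicate 1 and 124 in replicate 2, at rank 209. Its summit was 280 bp upstream, 119 bp from Icmt, which encodes the isoprenylcysteine carboxyl methyltransferase. The gene mRpL24 encodes the counterpart of another protein that acts at the start of assembly in bacteria. It had a joint signal of 173 (chromosome 2L, 4945465 to 4945550), with 85.8 and 91.5 in replicates 1 and 2, at rank 324, 142 bp upstream of mRpL24 and 76 bp from betaggt-I, a subunit gene of a protein prenyltransferase. The small subunit gene mRpS2 had a joint signal of 155 (chromosome 2L, 4850442 to 4850765), with 59.1 and 97.3 in replicates 1 and 2, at rank 407. Its summit was 185 bp upstream of mRpS2 and 37 bp from Mon1, which encodes a protein of endosome maturation. At mRpL32 the joint signal was 154 (chromosome 3R, 31252576 to 31252899), with 76.6 and 77.3 in the replicates, at rank 414. Here the summit was nearly midway, 134 bp from mRpL32 and 130 bp from qless, an enzyme gene of ubiquinone synthesis.

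The bases under these summits show what kind of sequence the peaks lie on. They are given for 7 of the 9 genes found in the joint list and both replicates, those of mRpL41 and mRpL34 not being shown, each read in the direction of the mRp gene, up to 60 bp either side of the summit and without annotated exons, from the RefSeq genome of the same assembly. For mRpL23 the summit is in an exon, so only the bases beside it outside exons are given. Capitals mark TTAAAA or its reverse complement TTTTAA, the pair of 6-mers with the greatest excess under the other promoter summits.
mRpS10 (chr3R:15229484-15229604, plus strand): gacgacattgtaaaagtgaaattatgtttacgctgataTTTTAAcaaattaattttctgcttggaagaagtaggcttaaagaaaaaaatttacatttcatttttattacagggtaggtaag
mRpS23 (chr2L:13835408-13835528, minus strand): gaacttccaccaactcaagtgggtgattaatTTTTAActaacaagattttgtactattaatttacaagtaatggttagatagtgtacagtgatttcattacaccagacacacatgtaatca
mRpL23 (chr3L:2373546-2373596, minus strand): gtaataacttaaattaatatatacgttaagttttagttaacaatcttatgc
mRpL20 (chr3L:13018087-13018207, minus strand): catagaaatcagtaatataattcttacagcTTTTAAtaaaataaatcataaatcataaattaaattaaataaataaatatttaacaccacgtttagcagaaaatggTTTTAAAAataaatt
mRpL24 (chr2L:4945443-4945563, minus strand): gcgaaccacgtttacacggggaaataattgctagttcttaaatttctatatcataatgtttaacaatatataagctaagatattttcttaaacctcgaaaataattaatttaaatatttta
mRpS2 (chr2L:4850544-4850640, minus strand): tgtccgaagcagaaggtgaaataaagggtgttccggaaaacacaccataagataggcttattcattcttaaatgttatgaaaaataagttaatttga
mRpL32 (chr3R:31252678-31252798, plus strand): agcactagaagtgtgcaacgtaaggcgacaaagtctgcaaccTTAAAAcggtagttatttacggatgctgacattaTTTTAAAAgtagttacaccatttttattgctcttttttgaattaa

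These stretches are rich in A and T. Over 50 bp either side of the summit the 15 mRp peaks had a median GC content of 28.7%. It was 32.7% for all 1524 promoter summits of the joint list and 30.7% for those of genes with a head-to-head neighbour. The lowest of the 15 was mRpL20, with 16.8%, and mRpL53 stood apart with 57.4%. The sequence TTAAAA (searched on both strands, overlapping matches counted) was picked on 1509 promoter peaks without the mRp genes. It occurred within 50 bp of 35.5% of those summits and in 13.6% of windows of the same size 1000 bp to either side. It was within 50 bp of 10 of the 15 mRp summits (66.7%), namely those of mRpL41, mRpS10, mRpS23, mRpL23, mRpL20, mRpL32, mRpS6, mRpL34, mRpS18B and mRpL11. Within 100 bp it was again at 10 of the 15 (66.7%), against 50.7% of all 1524 promoter summits, those of head-to-head genes not being counted apart. In the 200 bp before the TSS it was also frequent where no peak was called, in 36 of the 58 unbound mRp genes (62.1%) and in 12 of the 15 bound ones (80%). The share over all protein-coding promoters was 43.1%, and over those of genes with a head-to-head neighbour it was 50.3%.

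Most of the 16 known patterns searched were at few of the mRp summits or at none. The DNA replication-related element TATCGATA was within 100 bp of 1 of the 15 summits, that of mRpS18B (6.67%), against 4.72% of all promoter summits and 7.39% of all promoters in a window of the same length. The core of motif 1, GGTCACAC, was at none of the 15 and in 2.3% of all promoter summits. CACGTG was at 1, mRpL23 (6.67% against 3.28%), and CAGCTG at 3, mRpL24, mRpS2 and mRpL53 (20%, 4.33 to 48.1%, against 10.6%). The shorter CGATA, which the replication element contains, was at 5 summits (33.3% against 31.2%). GAGAGA was at 0 of 15 summits and at 11.4% of all promoter summits, and AGATAA at 4 (26.7%, 7.79 to 55.1%, against 13.3%). Lower than at all promoter summits were GCCAT, at 1 (6.67%, 0.169 to 31.9%, against 26%), and TATAAA, at 4 (26.7%, 7.79 to 55.1%, against 36.2%). The part CCCCAAA of the site of RREB1, the mammalian homologue of pebbled, was at 0 of 15 and at 1.97% of all promoter summits. Shares at promoter summits of head-to-head genes were 7.62% for the replication element, 2.82% for motif 1, 3.1% for CACGTG and 12.8% for CAGCTG. There CGATA was at 35.4%, GAGAGA at 7.19%, AGATAA at 13.3%, GCCAT at 26%, TATAAA at 39.8% and CCCCAAA at 1.69%. With 15 windows, a count of 0 allows a share of up to 21.8%.

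**Figure D1:**
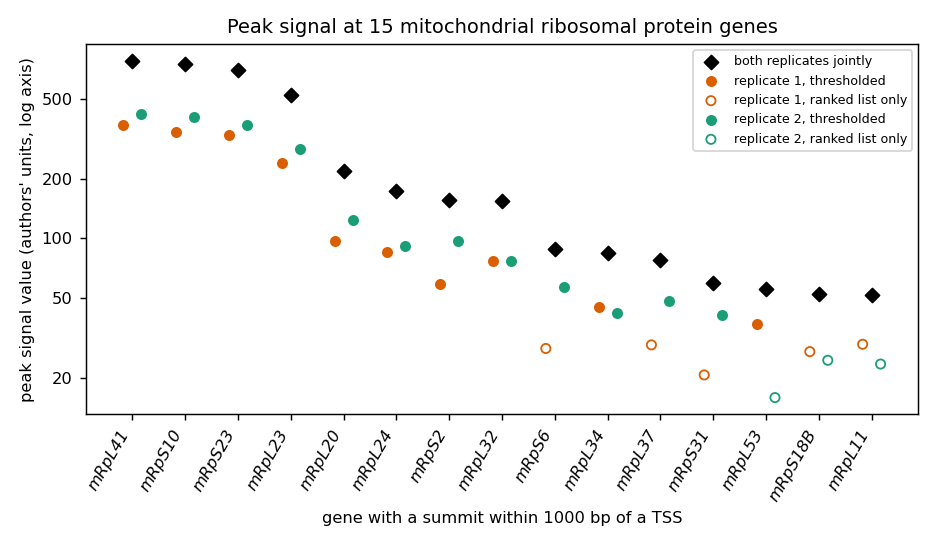
Peak signal value (authors' units, log axis) at the 15 mRp genes with a joint peak, strongest first: diamonds are the joint list and filled circles the thresholded list of a replicate. Open circles are the strongest entry within 1000 bp in a replicate's ranked list where the thresholded list had no peak. The 4 strongest joint values, 524 to 781, stand above the rest, which run from 52.2 to 217, and open circles appear only among the 7 weakest genes.

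The remaining 7 genes had joint signals of 52.2 to 88.1, and just 1 of them, mRpL34, was found in both replicates. The gene mRpS6 had a joint signal of 88.1 (chromosome 3L, 4364300 to 4364623, rank 1068). Its value was 56.9 in replicate 2, and in replicate 1 it was listed only in the ranked list, which also holds entries below the threshold, with 28. The summit was 88 bp upstream of mRpS6 and 360 bp from Cip4, an F-BAR protein gene. At mRpL34 the joint signal was 84.1 (chromosome 2R, 16098634 to 16098957, rank 1156), with 45.5 in replicate 1 and 42.0 in replicate 2. The summit was 152 bp upstream of mRpL34 and 232 bp from Dg, the dystroglycan gene. At mRpL37 it was 77.5 (chromosome 3R, 10784122 to 10784445, rank 1314), with 48.5 in replicate 2 and 29.2 in the ranked list of replicate 1. The summit was 192 bp upstream. At mRpS31 it was 59.7 (chromosome 3L, 16004971 to 16005294, rank 1928), with 41.3 in replicate 2 and 20.6 in the ranked list of replicate 1. The joint summit 60 bp upstream was the nearest to an mRp start of all 15, while the ranked entry of replicate 1 had its summit 128 bp upstream.

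The last 3 had the lowest joint signals. The peak of mRpL53 had a joint signal of 55.6 (chromosome 2R, 13953969 to 13954292, rank 2117) and was found in replicate 1, with 37.0, but in replicate 2 only in the ranked list, with 15.9. It lay 64 bp upstream of mRpL53 and of CG33155, and 106 bp from AGO1, the Argonaute gene of the microRNA pathway, within an intron of AGO1. It was also the only one of the 15 missing from the authors' conservative list. At mRpS18B the joint signal was 52.5 (chromosome 2L, 20097170 to 20097493, rank 2286), 79 bp upstream of the gene and 249 bp from Kua. At mRpL11, the counterpart of a bacterial protein at the base of the ribosomal stalk, it was 52.2 (chromosome 3R, 14511558 to 14511881, rank 2303), 118 bp upstream of the gene and 8 bp from HtrA2, which encodes a mitochondrial protease. Neither was in the thresholded list of a replicate: the ranked lists of replicates 1 and 2 gave 27 and 24.4 for mRpS18B and 29.4 and 23.4 for mRpL11. These values are the strongest ranked entries within 1000 bp of the TSS, so their summits can differ from the joint one. For mRpS18B the summit was 12 bp downstream of the TSS in replicate 1 and 80 bp upstream in replicate 2. For mRpL11 it was 144 and 171 bp upstream. No mRp gene was bound in a replicate list without being bound in the joint one.

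Compared with the genome, the number of bound mRp genes was modest, and some of the peaks at them were strong. The 15 of 73 are 20.5% (exact 95% interval 12 to 31.6%), against 13.5% of all protein-coding genes (1877 of 13945), and the interval holds the share of all genes. In replicate 1 it was 10 of 73 (13.7%, 6.77 to 23.8%) against 7.69%, and in replicate 2 12 of 73 (16.4%, 8.79 to 27%) against 10.7%. The conservative list gave 14 of 73 (19.2%) against 13.1%. In the joint list and both replicates at once there were 9 of 73 (12.3%, 5.8 to 22.1%) against 6.6%. At 1000 bp with all TSSs, all of these intervals hold the share of all genes. With 500 bp the same 15 were bound against 11.2% of all genes, and with the 5′-most TSS alone against 11.9%. Both are below the interval of 12 to 31.6%. A window of 200 bp gave 13 (17.8%) against 7.88%. With any base of the peak within 1000 bp it was 15 against 14%, and with the nearest TSS alone 8 (11%) against 9.62%. The share of all head-to-head genes was not computed for these settings. The bound mRp genes had a median joint signal of 154, against 83.6 for all bound genes and 85.3 for bound genes with a head-to-head neighbour. Their values ran from 52.2 to 781, and 11 of the 15 were above 73.6, the median of all joint peaks. Among the 284 strongest peaks stood 5 of the 73 mRp genes (6.85%, 2.26 to 15.3%), against 1.97% of all genes. Of all 1877 bound genes, 30 (1.6%) had a value at or above the 524 of mRpL23, and 4 of these 30 were mRp genes. This cut is the value of an mRp gene itself, so the 4 of 30 is no independent measure of strength. Only 22 peaks reached that value, each counted for every gene within 1000 bp.

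**Figure D2:**
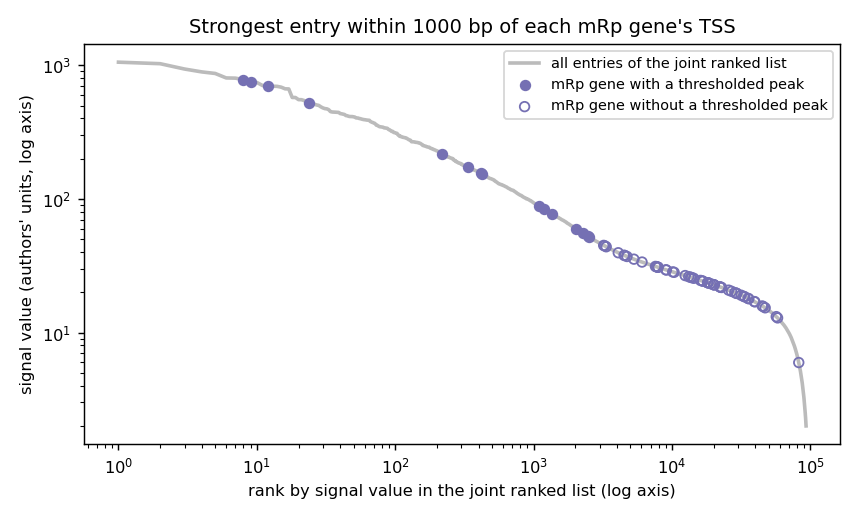
Signal value (authors' units, log axis) against rank (log axis) in the joint ranked list, with the strongest entry within 1000 bp of each mRp gene: filled circles have a thresholded peak, open circles do not, and the grey line is the list of all 92933 entries. Filled circles reach from 781 down to 52.2, and the open ones begin at 44.9.

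Most mRp genes had the start of another gene close by on the other strand. A gene was called head-to-head when a protein-coding neighbour on the other strand started within 1000 bp and ran away from it. This held for 58 of the 73 mRp genes (79.5%, 68.4 to 88%), against 36.2% of all protein-coding genes (5052 of 13945). The median distance between the TSSs of the pair was 291 bp for the 15 bound mRp genes and 281 bp for the 43 unbound ones of this arrangement. All 15 bound genes were among the 58, or 25.9% of them (15.3 to 39%), against 22.6% of all head-to-head genes (1143 of 5052). Of the 15 mRp genes without such a neighbour, 0 were bound, which allows a share of up to 21.8%, against 8.25% of all genes of that kind (734 of 8893). Among genes of the same arrangement the share of bound mRp genes was therefore near that of other genes. At the 284 strongest peaks stood 5 of the 58 head-to-head mRp genes (8.62%, 2.86 to 19%), against 3.31% of all head-to-head genes, a share that the interval holds.

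**Figure D3:**
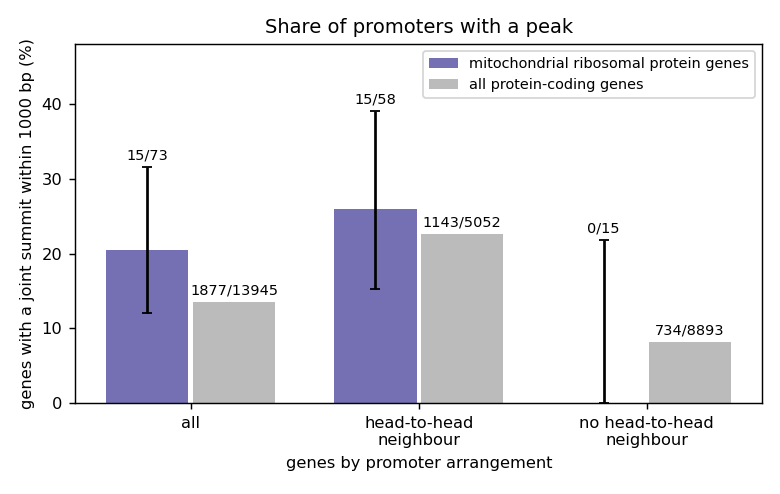
Percentage of genes with a joint summit within 1000 bp of a TSS, for mRp genes (purple, with exact 95% intervals) and all protein-coding genes (grey), over all genes and by promoter arrangement; the numbers are bound genes over all genes. The purple bar is 20.5% over all genes, 25.9% with a head-to-head neighbour and 0 without one, against 13.5%, 22.6% and 8.25% in grey.

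The summits lay between the 2 starts in 14 of the 15 pairs, mRpL23 being the exception. Of the 15, 13 were between genes in the annotation and 2 in a gene, mRpL23 and mRpL53. The same shares over other bound head-to-head pairs were not computed. The summit was nearer to the start of the mRp gene in 8 pairs and nearer to that of the neighbour in 7, among them mRpS23, mRpL20, mRpL24, mRpS2, mRpL32 and mRpL11. Of the 15 summits, 13 were within 200 bp of the mRp gene's nearest TSS (86.7%), against 55.9% of all bound genes and 63.5% of bound head-to-head genes. The median distance was 132 bp, against 176 bp for all bound genes and 152 bp for bound head-to-head genes. Upstream summits numbered 14 (93.3%), against 82.2% of all bound genes and 85.5% of bound head-to-head genes. The farthest after mRpS23 and mRpL20 were mRpL37, mRpS2 and mRpL34, and the nearest after mRpS31 were mRpL53, mRpL23, mRpS18B and mRpS6. The positions therefore do not tell which gene of a pair a peak belongs to. When each peak was given only to the gene with the nearest TSS, 8 mRp genes were bound (11%), against 9.62% of all genes. Of these 8, mRpL53 starts at the same base as CG33155, and the tie was given to mRpL53 by the order of gene identifiers.

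**Figure D4:**
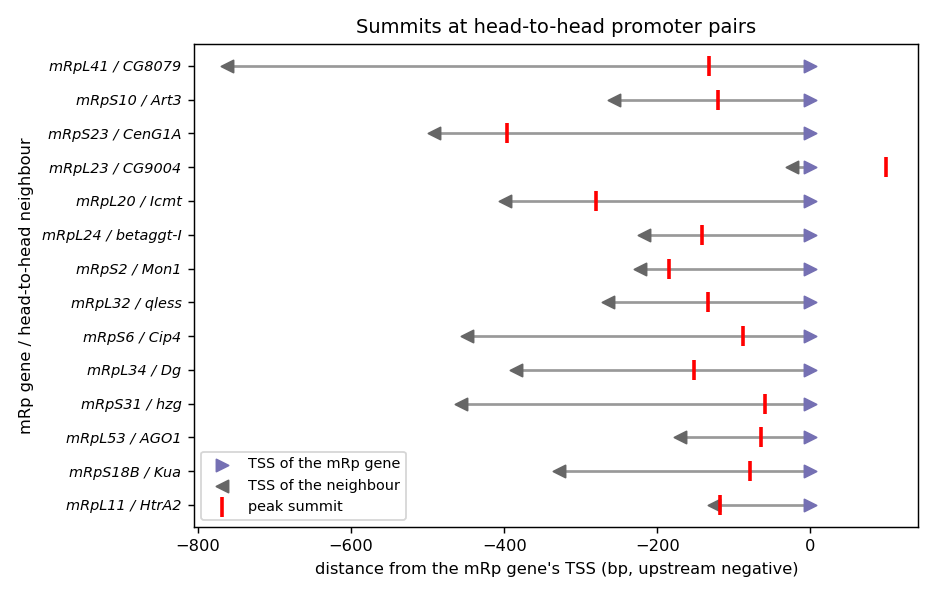
Position of the peak summit (red bar) between the TSS of each bound mRp gene (purple, at 0) and that of its head-to-head neighbour (grey), in bp with upstream negative, strongest peak at the top, for 14 of the 15 pairs. Of these 14 summits, 13 lie between both starts and 1, at mRpL23, lies inside the mRp gene.

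The replicates placed the summits of the 9 genes found in both at much the same positions. The distance between them had a median of 16 bp and ran from 0 to 34 bp. The lists of the replicates are not on one scale: the signal value of replicate 2 over that of replicate 1 had a median of 1.13 over the 9 genes (0.92 to 1.65) and of 1.16 over all 921 genes bound in the joint list and in both replicates. Of the other 6 bound genes, 3 were found in replicate 2 only (mRpS6, mRpL37 and mRpS31), 1 in replicate 1 only (mRpL53) and 2 in neither.

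Both subunits were represented. For the large subunit 9 of 47 genes were bound (19.1%, 9.15 to 33.3%), and for the small subunit 6 of 26 (23.1%, 8.97 to 43.6%). The share of all protein-coding genes was 13.5%. In replicate 1 these counts were 7 and 3 (14.9 and 11.5%, against 7.69% of all genes), and in replicate 2 they were 7 and 5 (14.9 and 19.2%, against 10.7%). Genes numbered like a bacterial protein (L1 to L36 and S1 to S21) were bound in 10 of 42 cases (23.8%, 12.1 to 39.5%), and those with higher numbers in 5 of 31 (16.1%, 5.45 to 33.7%). The joint intervals of all 4 classes hold the 13.5% of all genes and overlap within both comparisons, and the differences were not tested. The strongest 4 held 2 genes of each subunit and 2 of each kind of number.

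By chromosome, 4 of 12 mRp genes were bound on 2L (33.3%, 9.92 to 65.1%, against 12.8% of all genes there) and 3 of 12 on 2R (25%, 5.49 to 57.2%, against 13.1%). On 3L it was 4 of 17 (23.5%, 6.81 to 49.9%, against 14.7%) and on 3R 4 of 21 (19%, 5.45 to 41.9%, against 13.8%). Each interval holds the share of all genes of its chromosome. On the X it was 0 of 11 (upper limit 28.5%), against 12.9% of all genes of the X, although 9 of the 11 were head-to-head. These were mRpL3, mRpL14, mRpL16, mRpL22, mRpL30, mRpL33, mRpL38, mRpL49, mRpS14, mRpS25 and mRpS30. The strongest of them in the joint ranked list was mRpL33 with 37.9.

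The other 58 mRp genes had no thresholded summit within 1000 bp. Of these, 55 had an entry in the joint ranked list (94.8%, against 82.8% of all unbound genes), 48 in that of replicate 1 (82.8%, against 75.2%) and 46 in that of replicate 2 (79.3%, against 68.1%). Such entries are common everywhere, since that list holds 92933 of them. Their strongest values had a median of 23.6 and ran from 5.96 to 44.9, all below the weakest bound gene, mRpL11. The highest belonged to mRpL39, whose head-to-head neighbour is the proteasome subunit gene Prosbeta2. Its entry, 104 bp upstream, had a score of 829, just under the lowest of 830 in the joint list, with 18.7 in replicate 1 and 25.7 in replicate 2. It was followed by mRpL18 with 44.5 (score 35), mRpS35 with 43.8 (score 732) and mRpL43 with 39.6 (score 45). No entry was listed in any of the 3 ranked lists for mRpL45 and mRpS5. No entry past the score threshold at an mRp gene was missing from the joint thresholded list.

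For 6 unbound genes the nearest joint summit was past 1000 bp but within 2000 bp of a TSS, here with upstream distances negative: mRpL27 (1244 bp), mRpS7 (1324 bp), mRpL13 (1456 bp), mRpL55 (-1504 bp), mRpS24 (1893 bp) and mRpL46 (-1954 bp). For 41 of the 58 it was over 5000 bp away or none lay within 20000 bp. The genes without a head-to-head neighbour were mRpL9, mRpL10, mRpL12, mRpL13, mRpL14, mRpL19, mRpL36, mRpL40, mRpL45, mRpL49, mRpS5, mRpS9, mRpS33, mRpS34 and mRpS35. The mRp genes were short, with a median length of 854 bp for the bound and 916 bp for the unbound ones, against 2166 bp for all protein-coding genes, and 67 of the 73 had a single TSS (91.8%, against 73.5%).

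Other nuclear genes of the mitochondrion were bound in part. The mitoribosomal genes with symbols of their own, tko and bonsai, which encode the S12 and S15 proteins, were not bound. Of 15 mitochondrial aminoacyl-tRNA synthetase genes 2 were bound (13.3%), LeuRS-m with a joint signal of 207, whose summit, at -858 bp, is shared with Dhc64C, and ProRS-m with 82.5. Of 12 genes for mitochondrial translation factors and the amidotransferase 0 were bound (upper limit 26.5%). Genes for upkeep, transcription and RNA of the mitochondrial genome were bound in 7 of 21 cases (33.3%, 14.6 to 57%). They were led by PNPase, an RNA-degrading enzyme (705, rank 10), SLIRP2, the homologue of an RNA-binding protein of mammalian mitochondria (403), the matrix protease gene Lon (347) and SLIRP1 (99.99), all 4 found in both replicates.

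Among the genes of respiration, 6 of 40 for complex I were bound (15%, 5.71 to 29.8%), led by ND-ASHI (179), ND-MWFE (148), ND-24 (144) and ND-51 (88.3). All 6 had a head-to-head neighbour, for ND-ASHI the gene Fum1. For complex II it was 2 of 4, SdhA (52.8) and SdhC (42.6), for complex III 0 of 11, for complex IV and its assembly 2 of 16, COX5A (81.8) and COX5B (56.5), and for the ATP synthase 1 of 15, ATPsynE (57.5). Of the Tom and Tim genes of protein import 1 of 15 was bound, Tom7 (88.6). These shares lie on either side of the 13.5% of all genes.

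The genes of the cytoplasmic ribosome, taken by symbols that start with RpL or RpS and sta, differed from the mRp genes in 2 ways. More of them were bound, 37 of 93 (39.8%, 29.8 to 50.5%) against 20.5% of mRp genes, but their peaks were weaker, with a median joint signal of 74.5 against 154 and a highest value of 205 at RpL32 against 781 at mRpL41. The cytoplasmic genes also differed by replicate, with 11 of 93 in replicate 1 and 33 of 93 in replicate 2. The mRp genes had 10 and 12 of 73 (13.7 and 16.4%), and the share of all genes rose as well, from 7.69 to 10.7%. Of the bound cytoplasmic genes 24 of 37 had a head-to-head neighbour, against all 15 of the bound mRp genes and 60.9% of all bound genes. Over bound and unbound genes together it was 56 of 93 cytoplasmic genes and 79.5% of mRp genes. None of these differences was tested.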

How the data were processed

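ChIP-seq peak lists of 2 biological replicates in 1 group of whole embryos were used. Per the file headers, peaks came from the alignments of each replicate, or of both, plus 1 more file that the fold-over-control tracks share, and were ranked and thresholded by the irreproducible discovery rate (IDR) on dm6. The thresholded lists had 1 more input of a kind not given; the aligner and the peak caller are not given in the sources used here. The deposited signal is each peak's own value. The deposited score is the IDR scaled and capped at 1000, and in the joint ranked list it matched the deposited −log10 of the global IDR within 1 for all 92933 entries. All 2845 joint peaks were in the ranked list tied to them, and 830, the lowest score, is an IDR of 0.01. Reads and signal tracks were left out.

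Summits (1-based) were compared with the TSSs of all transcripts of protein-coding genes on 2L, 2R, 3L, 3R, 4 and X in Ensembl release 115 (BDGP6.54), with scipy 1.17.1, pandas 2.3.3, numpy 2.4.6 and matplotlib 3.10.9 under Python 3.11.15. Of several summits the strongest was used. Bases came from the RefSeq genome of the same assembly, and all peak ends lay within its chromosomes. The 16 patterns were searched on both strands, 100 bp either side of summits. The call was tested on simulated data with planted summits.

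Every bound mRp gene is named, with full values for the 12 strongest and for those in 1 list or in neither replicate, and up to 4 of each other list. Members, lists and patterns were chosen with earlier results of these data known. Twinkle was not matched to a symbol. 1 neighbouring gene is not reported here. Alternatives were other lists, scores, windows, TSS sets, assignments, pair distances and pattern windows; the 6-mer was chosen after seeing the data.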

Additional observations from a re-analysis of the deposited data

How the results depend on the processing

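Of 113 values recomputed under alternatives, 98 kept within 1.5 times the count reported or, for shares and distances, within their exact interval or interquartile range, and 15 moved. With each peak given only to the nearest TSS, 8 mRp genes were bound (11%), 4 of the large subunit, or 13.8% of those with a head-to-head neighbour. This drop is by construction, since the other 7 share their peak with a nearer neighbour. Only 3 were then bound in the joint list and both replicates, as peaks were assigned anew in each list. One loss, mRpS10, came from replicate 2, where its summit, 132 bp upstream, was nearer to Art3. In that setting the ratio to all genes was 1.14, against 1.53 as reported and 1.47 to 2.26 under the other 9 settings. With 1 replicate left out, 10 to 12 mRp genes were bound, and the small subunit count was 3 to 5. A pair distance of 250 bp left 25 head-to-head mRp genes of 58, of which 5 were bound (20%), and the other 10 bound genes then fell outside the class. The share of all head-to-head genes at that pair distance was not computed. A window of 2000 bp raised the bound mRp genes to 21 (28.8%, against 17.1% of all genes), with all 15 kept. Of the 21, mRpL13 alone has no head-to-head neighbour. Of 32 pattern shares 8 moved with the window: with 50 bp the replication element, its core, both E-boxes and the CGATA pattern were at 0 of 15 summits, against 0.853 to 14.7% of all promoter summits. With 200 bp the CAGCTG pattern was at 66.7% (all promoter summits 25.9%, those of head-to-head genes 31%). The TATAAA pattern was at 60% (51.9% and 56.3%) and the CGATA pattern at 73.3% (49.5% and 56.4%). No paired analysis was possible because there is 1 group and no result comes from a test. Read depth is unknown here, and 73 genes limit every share.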
